A study of Larix kaempferi with 6 samples.

Results

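A set of 95 transcripts in larch shoot tips was well expressed in watered seedlings and strongly lowered after 14 d without watering. Its members were chosen from the measured values: each had at least 20 FPKM (fragments adjusted for the length of the transcript and for sequencing depth) in every control library, and its highest drought value was at most 25% of its lowest control value. They made up 1.81% of the 5253 transcripts at 20 FPKM or more in each control and 0.777% of the 12228 transcripts listed. The opposite rule, with the groups exchanged, was met by 132 of 5483 transcripts (2.41%).

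The plants were 4-month-old Japanese larches (Larix kaempferi, a conifer that sheds its needles), grown singly in pots in a greenhouse. Soil water was kept at 70% of field capacity or above during growth, in both groups. The control group (CK) was watered normally, and the drought group (D14) was left dry for 14 d. RNA was taken from the upper 3 cm of the seedling, with 3 libraries per group and no other difference between the groups given in the labels. The labels name neither a provenance nor a family. Whether a library stands for 1 plant, a pool or a repeat of the same RNA is not stated, so p-values measure only the spread between libraries, which may be partly technical.

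A shoot tip holds the apical meristem, expanding needles and an elongating stem. Water shortage is known to slow cell expansion and division and to close stomata, and the transcripts of growth and photosynthesis are often among those lowered in drying plants. The level of a transcript reflects both its synthesis and its decay. In a bulk sample, fewer cells of a type and less RNA per cell cannot be told apart. The files do not pair the identifiers with gene names, so no function is given for any member, and markers of the tissue could not be looked up.

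The identifiers carry other information. The form Lo_f3p60_883_transcript26020_g4 is read here as a length of 883 nt, the number before the word transcript. In the usual naming of PacBio long-read isoforms, the numbers after f and p count the full-length and partial long reads behind a consensus, although the files do not say so. The meaning of the last field, g, is not stated.

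The libraries were not evenly spaced. Over 9317 transcripts, controls 1 and 2 correlated at r = 0.989 on the log2(FPKM + 1) scale, control 3 with either of them at 0.893 to 0.894, and the drought libraries with each other at 0.877 to 0.961. Control 3 and drought 1 were low in long transcripts: at 1700 nt and over, their median deviation from the 6-library mean was -0.53 and -0.30 on the log2 scale, against 0.13 to 0.25 for the remaining libraries. Drought 2 and drought 3 were low in short transcripts. Under 800 nt, their median deviation was -0.19 and -0.27, against 0.11 to 0.15 for all controls and drought 1. The steps between low values point to 12450000 to 17250000 fragments per library. In this estimate, 64.4% to 72.1% of the usable low values came out within 0.1 of a whole fragment. The depth was chosen to make these same values most nearly whole, so that share is no separate check of it. As the libraries were uneven, counts, share lost and lengths are also given without control 3 or drought 3 where these moved them by more than 1.5 times.

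The size of the fall ranged widely among the 95. The median control level was 124.3 FPKM (mean of 3 libraries per transcript, range 25.4 to 1810) and the median drought level was 9.38 FPKM (range 0 to 253.3). The residual level, the drought mean as a percent of the control mean, had a median of 8.42%, with quartiles of 4.32% and 13.4% and a highest value of 21.7%. These values chose the members, so they are given as a description and carry no test. Against controls 1 and 2 alone, the median residual level of the same 95 was 8.66%.

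**Figure D1:**
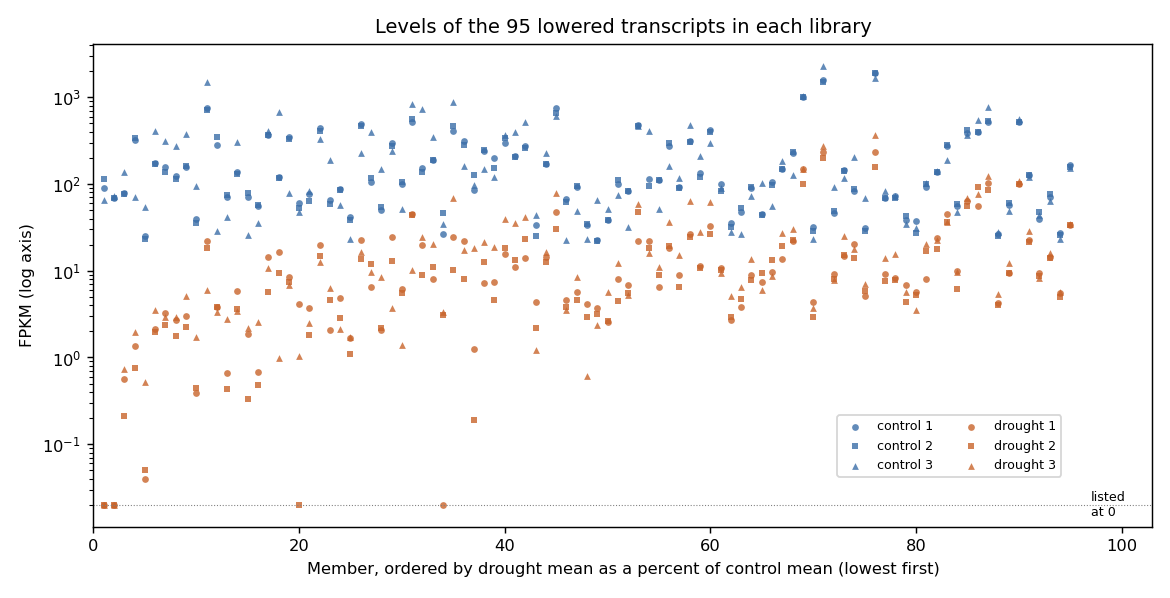
FPKM of each of the 95 members in each library on a log axis, with members ordered from the lowest to the highest residual level. Blue points are controls, orange points are drought libraries, and values listed at 0 sit on the dotted line. The gap between the groups narrows from left to right, and the blue points of a member spread furthest on the left.

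In the fit across all transcripts (limma's moderated test on log2(FPKM + 1), Benjamini-Hochberg adjusted p under 0.05), 905 of 9317 transcripts (9.71%) were called lower in drought. All 95 members were among them, with adjusted p-values up to 0.0143 by limma. Since the rule used this same contrast, nothing is read from that count. The median log2 change, drought minus control, was -3.35 for the members and 0.05 for all tested transcripts.

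Near-complete loss was found in few members. Every drought value was at or below 1 FPKM in 4 of the 95 (in 11 of the 161 transcripts that met the rule without drought 3), and 2 of these 4 were listed at 0 in all 3 drought libraries. Lo_f3p60_883_transcript26020_g4 had 89.89, 114.39 and 65.15 FPKM in the controls. Lo_f2p60_1054_transcript6334_g3 had 68.96, 68.43 and 73.41 FPKM. No fold is given against a level listed at 0, which can also arise where similar transcripts share fragments. The remaining 2 of the 4 kept a trace. Lo_f3p60_1242_transcript20382_g3 fell from 79.78, 77.12 and 136.82 FPKM to 0.56, 0.21 and 0.74 FPKM, and its 3 drought values correspond to an estimated 7.81, 2.81 and 8.86 fragments. Lo_f2p60_1234_transcript20551_g8 fell from 25.41, 23.24 and 54.59 FPKM to 0.04, 0.05 and 0.52 FPKM. Its values in drought 1 and 2 correspond to 0.553 and 0.663 of an estimated fragment, less than 1 whole fragment, and its value in drought 3 to 6.18. At these levels the residual share is set by very few fragments.

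A further group kept a low but measurable level. The residual level was at most 5% in 28 members in all, those with near-complete loss included, and 34 of the 93 members with a drought mean above 0 were at least 16-fold lower, 10 of them at least 50-fold. Lo_f2p60_841_transcript26921_g12 went from 319.13, 340.39 and 70.82 FPKM to 1.34, 0.76 and 1.98 FPKM, a residual level of 0.559%. Lo_f2p60_442_transcript11653_g2, with 174.75, 171.89 and 411.64 FPKM in the controls, kept 2.12, 1.97 and 3.52 FPKM, or 1.00%. In both, control 3 stood apart from controls 1 and 2, below them in the first and above them in the second, and every drought value was under 4 FPKM. The most abundant member of this group was Lo_f38p60_489_transcript32972_g1, at 742.97, 716.86 and 1489.49 FPKM in the controls and 21.94, 18.13 and 5.92 FPKM in drought, a mean fall from 983.1 ± 438.7 to 15.3 ± 8.37 FPKM (SD, n = 3). Its rank among all 12228 transcripts went from 153 to 6904. Drought 3 held the lowest of its 3 drought values.

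Most members fell only in part. The residual level was over 5% and up to 10% in 27 members, over 10% and up to 15% in 25, over 15% and up to 20% in 11, and over 20% in 4. Every drought value stayed at 20 FPKM or more in 15 of the 95, which thus remained above the level asked of the controls, and every drought value was under 20 FPKM in 60. The 4 members with the highest residual level were even within each group. Lo_f15p60_1018_transcript23609_g1 had 165.07, 156.03 and 151.53 FPKM in the controls and 34.12, 34.03 and 34.37 FPKM in drought. Its drought libraries were nearly level, at 34.2 ± 0.18 FPKM (SD, n = 3), 4.61-fold below the controls. Lo_f3p60_659_transcript30396_g2 had 27.1, 25.98 and 23.19 FPKM in the controls and 5.61, 4.93 and 5.69 FPKM in drought. Lo_f6p60_1796_transcript15380_g1, at 1796 nt one of the longer members, had 70.59, 77.08 and 64.51 FPKM against 14.46, 14.17 and 15.85 FPKM. Lo_f2p60_505_transcript32767_g4 had 39.91, 47.33 and 43.59 FPKM against 9.5, 8.77 and 8.29 FPKM. The rule favours such evenness at this end, because a member with uneven controls must lie further below their mean to pass.

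**Figure D2:**
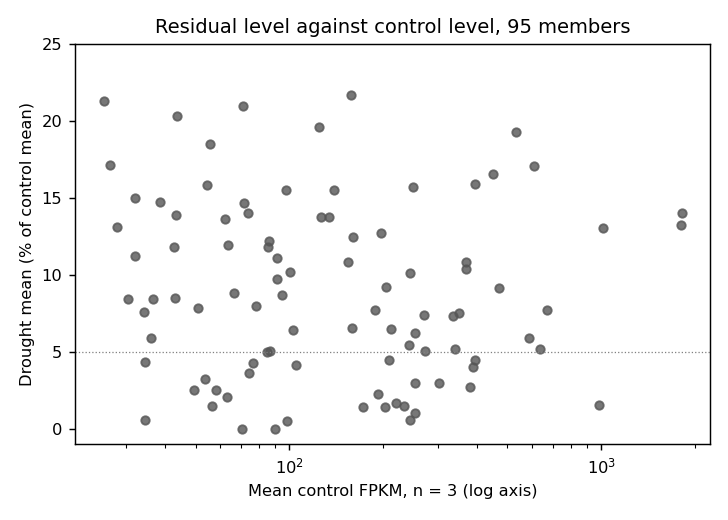
Residual level (drought mean as a percent of control mean) of the 95 members against their mean control FPKM on a log axis. Each point is a member and the dotted line marks 5%. Deep and partial falls occur at low and at high control levels, and the 3 members above 1000 FPKM lie between 13.0% and 14.0%.

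The most abundant members fell in part and kept a sizeable level. Lo_f7p60_439_transcript33510_g1, a short transcript of 439 nt, was the highest in the set, at 1889.67, 1893.1 and 1646.84 FPKM in the controls. It had 233.24, 158.42 and 368.18 FPKM in drought, so drought 3 was the highest and drought 2 the lowest. The mean went from 1810 ± 141.2 to 253.3 ± 106.3 FPKM (SD, n = 3), 7.15-fold lower, and the rank from 80 to 782. Lo_f42p60_637_transcript30893_g1 had 1586.53, 1505.39 and 2298.93 FPKM in the controls and 236.14, 200.23 and 277.35 FPKM in drought. Its f number of 42 is among the highest of the members, and its rank went from 81 to 846. Lo_f2p60_630_transcript30832_g8 had 994.95, 1000.37 and 1044.86 FPKM in the controls against 149.84, 98.84 and 147.64 FPKM. It was the most even of the 3 within the controls. These 3 members also had the highest drought levels of the set. Across all members, 37 were among the 1000 most abundant transcripts in the controls and 2 in drought.

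Abundant members at the next levels differed in depth of fall. Lo_f62p60_552_transcript11140_g1 had 749.29, 655.8 and 608.52 FPKM in the controls and 47.07, 30.51 and 78.35 FPKM in drought, a residual level of 7.74%. Lo_f2p60_465_transcript33192_g7 had 520.99, 562.45 and 831.57 FPKM against 44.7, 44.02 and 10.18 FPKM. Lo_f30p60_704_transcript29865_g1 had 517.94, 529.27 and 777.79 FPKM against 101.88, 86.28 and 122.81 FPKM. The last pair, with close control means of 638.3 and 608.3 FPKM, kept 5.16% and 17.0% of them. Drought 3 was the lowest library for the former and the highest for the latter.

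The members held 1.871%, 1.869% and 1.973% of all FPKM in controls 1 to 3 and 0.163%, 0.158% and 0.236% in drought 1 to 3. The share therefore went from 1.90% ± 0.059 to 0.185% ± 0.044 (SD, n = 3), a loss of 1.72 percentage points. Among the 3 drought libraries, drought 3 kept the most. The loss of the same 95 was 1.68 points without control 3 and 1.74 points without drought 3. With the members chosen anew, it was 3.78 points for the 254 transcripts that met the rule without control 3 and 3.14 points for the 161 that met it without drought 3. Summed over the 4573 transcripts whose mean share was lower in drought, 28.7 percentage points were lost, and the 95 accounted for 6.0% of that. The loss was spread over many members: the 2 most abundant carried 15.9% of it, 15 members carried 50%, and 56 carried 90%. The 12 members at a residual level of 2% or less, including the 2 listed at 0, carried 13.4% of the loss (0.832% from the 2 listed at 0 and 12.5% from the other 10), and the 25 members between 10% and 15% carried 32.2%. FPKM values are relative within a library, so these shares are not amounts of RNA.

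**Figure D3:**
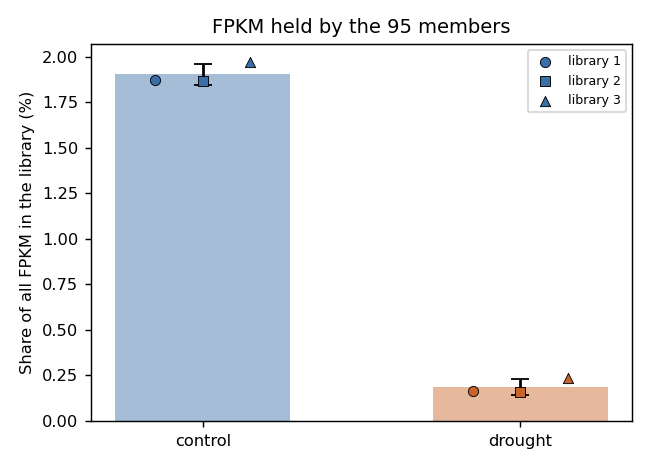
Share of all FPKM in a library held by the 95 members, in percent. Bars are group means, error bars are SD (n = 3) and symbols are the single libraries. Control shares run from 1.869% to 1.973% and drought shares from 0.158% to 0.236%.

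Members were shorter than the other well-expressed transcripts. Their median length was 884 nt (quartiles 621.5 and 1213 nt, range 273 to 1952 nt), against 1222 nt for the other 5158. The rule was met by 41 of 903 well-expressed transcripts under 800 nt (4.54%), by 30 of 1670 from 800 to under 1200 nt (1.80%), by 17 of 1356 from 1200 to under 1700 nt (1.25%) and by 7 of 1324 at 1700 nt and over (0.529%). The set raised by the opposite rule had a median length of 954 nt, and 4.16%, 3.34%, 1.81% and 0.881% of transcripts met it in the same length classes. The median length was 698.5 nt for the 28 members at a residual level of 5% or less and 991 nt for the other 67. Length did not follow the depth of fall throughout, as the 4 members with near-complete loss had 883, 1054, 1234 and 1242 nt and the 4 members over 20% had a median of 838.5 nt. Transcripts are not independent, so no test is attached to these lengths.

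The size of this length difference depended on control 3 and drought 3. Without control 3, 254 transcripts met the rule and their median length was 1126 nt, against 1282 nt for the other well-expressed transcripts. The shares meeting it by class were then 7.60%, 3.43%, 3.72% and 2.64%. Without drought 3, 161 transcripts met it, with a median length of 1014 nt against 1222 nt and shares of 6.09%, 2.99%, 2.43% and 1.74%. Without drought 1 the difference was -312.5 nt. With each library's length trend removed, 107 transcripts met the rule, 82 of them among the 95. Their median length was 1063 nt against 1268 nt, and the shares by class were 3.47%, 1.94%, 1.65% and 1.21%. The difference in median length, members minus the rest, was thus -156 nt without control 3, -208 nt without drought 3 and -205 nt with the trend removed, in place of -338 nt.

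**Figure D4:**
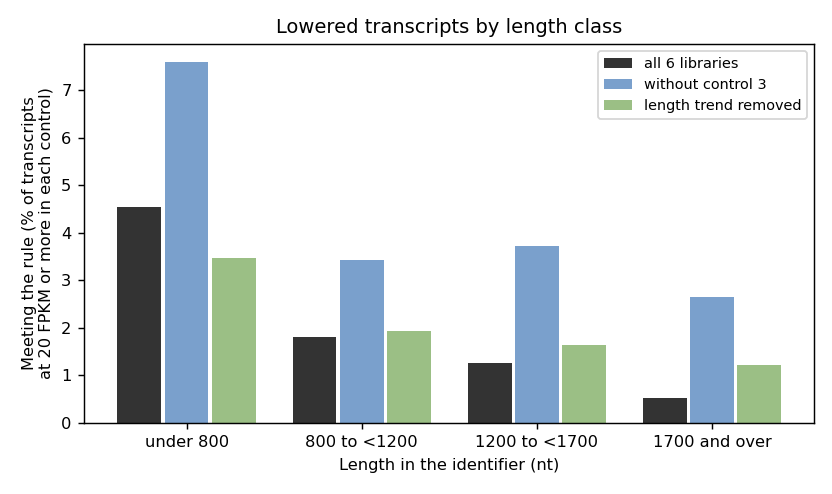
Transcripts meeting the rule as a percent of those at 20 FPKM or more in each control used, by length class, with all 6 libraries, without control 3 and with the length trend of each library removed. The share is highest under 800 nt in all 3 settings, and from the shortest to the longest class it goes from 4.54% to 0.529% with all 6 libraries, from 7.60% to 2.64% without control 3 and from 3.47% to 1.21% with the trend removed.

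The shortest and the longest members all fell in part. The shortest member, at 273 nt, was Lo_f2p56_273_transcript34718_g1. It had 26.85, 46.46 and 34.66 FPKM in the controls and 0, 3.06 and 3.31 FPKM in drought. The next shortest, Lo_f4p60_403_transcript33769_g1, gave 84.93, 127.01 and 96.96 FPKM in the controls and 1.25, 0.19 and 18.33 FPKM in drought. Drought 3 thus stood far above the other two, and without drought 1 its limma adjusted p was 0.0611 (0.000591 to 0.0611 over the alternatives tried). The longest members, Lo_f2p60_1952_transcript14293_g3 at 1952 nt and Lo_f3p60_1886_transcript14703_g2 at 1886 nt, kept 15.5% and 19.6%. The former had 91.56, 99.19 and 102.13 FPKM in the controls and 8.1, 16.79 and 20.6 FPKM in drought. The latter had 128.04, 125.67 and 119.26 FPKM against 22.51, 21.74 and 28.85 FPKM.

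The other identifier fields differed less. The f number was 10 or more in 13 of the 95 (13.7%), in 7.95% of the other well-expressed transcripts and in 14.4% of those raised by the opposite rule. It was 2, the lowest value, in 42.1% of members and 50.1% of the other well-expressed transcripts. The g field was 1 in 42.1% of members and 51.5% of the others. By control level, members made up 1.06% of the 1599 well-expressed transcripts with a control mean from 20 to under 50 FPKM, 1.63% of 1653 from 50 to under 100, 1.44% of 1045 from 100 to under 200, 4.24% of 637 from 200 to under 500, and 2.82% of 319 at 500 FPKM and over.

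Control 3 stood apart from controls 1 and 2 in many members. Control 1 and control 2 were within 2-fold of each other in all 95, as in 5155 of the other 5158 well-expressed transcripts. Control 3 was at least 2-fold above the mean of controls 1 and 2 in 19 members (20%) and at 50% of it or less in 9 (9.47%), against 3.74% and 14.1% of the other well-expressed transcripts. Among the 28 members at a residual level of 5% or less these counts were 12 and 5, and among the other 67 they were 7 and 4. The rule itself ties the spread of the controls to the residual level, and control 3 enters the control mean. The rule also sets a minimum for control 3, which removes transcripts low in that library. The 20% and 9.47% of members are therefore shaped by the choice. Chosen without control 3, 7.48% of 254 transcripts had it at least 2-fold above and 49.2% at 50% or less. For the other well-expressed transcripts these shares were 3.13% and 21.96%, so the comparison at the low end reversed. Choosing on controls 1 and 2 partly builds in a low control 3. With the residual level taken against controls 1 and 2 alone, control 3 was at least 2-fold above in 8 and at 50% or less in 6 of 26 members at 5% or less, and in 11 and 3 of the other 69.

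The largest spreads among controls came from control 3 in either direction. Lo_f5p60_547_transcript31780_g1 had 285.32, 345.15 and 28.65 FPKM in the controls and 3.87, 3.81 and 3.32 FPKM in drought, so control 3 lay nearer to the drought libraries in FPKM than to its own group. Lo_f2p54_451_transcript33368_g1 had 119.15, 115.8 and 673.15 FPKM in the controls and 16.66, 9.47 and 0.98 FPKM in drought. Control 3 was 5.73-fold above controls 1 and 2 there, and with the replicate number as a block its limma adjusted p was 0.0545 (0.0101 to 0.0545 over the alternatives tried).

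Within the drought group, drought 3 was the highest library in 56 members (58.9%) and drought 2 the lowest in 48 (50.5%). Among the other well-expressed transcripts these shares were 30.6% and 22.1%. The median level was 7.71%, 6.73% and 11.0% of the control mean in drought 1, 2 and 3. The largest spreads in drought above 1 FPKM ran in opposite directions. Lo_f10p60_1014_transcript24801_g1 had 413.79, 464.58 and 885.66 FPKM in the controls and 24.64, 10.28 and 69.62 FPKM in drought, highest in drought 3. Lo_f3p60_501_transcript32810_g1 had 298.76, 277.74 and 242.01 FPKM in the controls and 24.48, 12.9 and 3.71 FPKM in drought, lowest in drought 3.

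Levels in a library that played no part in the choice were examined by applying the rule to the other 5 libraries. Chosen without drought 1, 110 transcripts met the rule, and 109 of them (99.1%) were lower in drought 1 than in every control. Chosen without drought 2, all 97 were lower in drought 2, and chosen without drought 3, 154 of 161 (95.7%) were lower in drought 3. For the other well-expressed transcripts the shares were 33.5%, 32.9% and 33.4%. The control values compared with were themselves used in the choice, so high shares are partly built in. The full ratio of the rule held in the unused library for 95 of the 110 (86.4%), 95 of the 97 (97.9%) and 95 of the 161 (59.0%). These 95 are the members themselves, because a transcript that also passes in the unused drought library meets the whole rule. The shares thus only restate how far each list grew. The median level in the unused library was 8.87%, 6.90% and 16.2% of the control mean for drought 1, 2 and 3. These medians come from different sets, and the 161 include 66 transcripts that drought 3 itself kept off the list. In the same 95 members the medians were 7.71%, 6.73% and 11.0%. Drought 3 was at least 2-fold above the mean of drought 1 and 2 in 59 of the 161 (36.6%), against 2.91% of the other well-expressed transcripts. The choice of transcripts low in drought 1 and 2 partly builds this difference in. Drought 1 and 2 were the closest pair of drought libraries (r = 0.961), so each could stand in for the other.

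For the controls, 237 of the 254 transcripts chosen without control 3 (93.3%) were higher in control 3 than in every drought library, against 23.2% of the other well-expressed transcripts. Control 3 was lower than its group there, with a median of 0.508 times the mean of controls 1 and 2, against 0.721 for the others. All 100 chosen without control 1 and all 99 chosen without control 2 were higher in the unused control. The drought values compared with were themselves used in the choice, so high shares are partly built in here too. The full ratio of the rule held in control 3 for only 106 of the 254 (41.7%). It held in control 1 for 96 of the 100 and in control 2 for 96 of the 99. As controls 1 and 2 were closely spaced, each stood in for the other. A single unused library has no spread of its own, so no test was made.

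**Figure D5:**
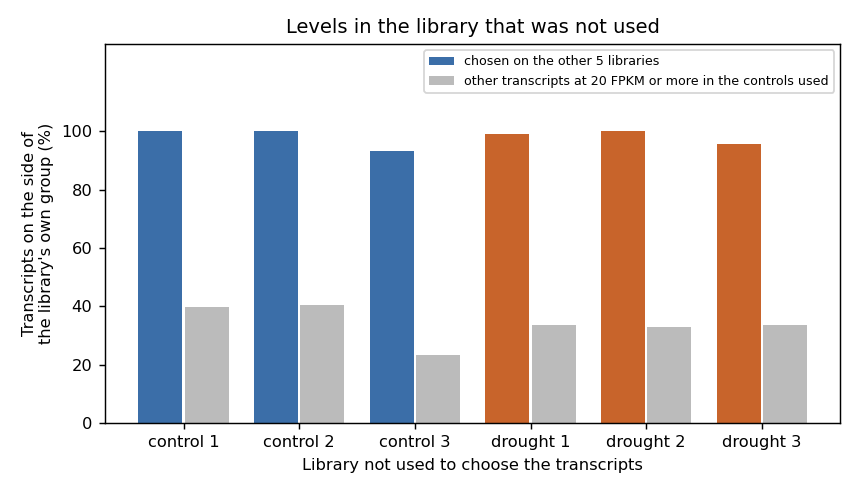
Percent of transcripts whose level in the unused library lay on the side of that library's own group (above every drought library for a control, below every control for a drought library). Coloured bars are transcripts chosen by the rule on the other 5 libraries and grey bars are the other transcripts at 20 FPKM or more in the controls used. Coloured bars run from 93.3% to 100% and grey bars from 23.2% to 40.4%. The values of the opposite group were used in the choice, so the height of the coloured bars is partly built in.

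Control 3 and drought 3 set the limits of the list. Setting control 3 aside added 159 transcripts, with a median length of 1256 nt. Control 3 was under 20 FPKM in 71 of them, whether or not these also missed the ratio. The other 88 were added through the ratio alone. Setting drought 3 aside added 66, with a median of 33.4 FPKM in drought 3 and 12.9 FPKM in the mean of the other 2 drought libraries. Setting aside control 1, control 2, drought 1 or drought 2 added 5, 4, 15 and 2.

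The threshold fell within a continuous range of values. Of the 5253 well-expressed transcripts, the highest drought value was at most 6.25% of the lowest control value in 15, over 6.25% and up to 12.5% in 16, over 12.5% and up to 25% in 64, and over 25% and up to 50% in 192. Every drought value lay below every control value in 1192 of them (22.7%). Just inside was Lo_f2p42_681_transcript10108_g1 at 24.9%, with 57.5, 60.31 and 48.66 FPKM in the controls and 9.4, 9.31 and 12.14 FPKM in drought. Lo_f2p60_758_transcript28472_g6 stood at 24.6%, with 31.28, 28.4 and 69.89 FPKM against 5.16, 5.83 and 6.99 FPKM. Next to it at 24.6% came Lo_f6p60_1796_transcript15380_g1, whose values are given above.

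Just outside, single libraries kept transcripts off the list. Lo_f3p60_477_transcript33107_g2 stood at 25.4%, with 321.13, 351.68 and 373.37 FPKM in the controls and 81.43, 69.37 and 0.95 FPKM in drought. Only drought 1 was over 25% of its lowest control value, and its level in drought 3 was far below that in drought 1 and 2. Lo_f2p55_422_transcript33746_g1 stood at 25.5%, with 171.73, 180.26 and 95.3 FPKM against 1.82, 3.6 and 24.27 FPKM. Here drought 3 was the high library and control 3 the low one. Lo_f2p60_1619_transcript16754_g3 was also at 25.5%, with 143.17, 141.82 and 215.58 FPKM against 36.1, 28.24 and 23.55 FPKM. Again only drought 1 was over the limit.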

How the data were processed

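Each library has its own table of 12228 transcripts, in which the authors deposited FPKM values (the unit named per the file headers) with 2 decimals. HTSeq 0.6.0, HISAT2 2.1.0 and Bowtie2 2.2.3 appear in the submitters' processing notes. The sources used here give neither their roles nor the counting rule nor the handling of shared fragments. Groups and replicate numbers came from the sample titles. The 6 tables were joined by identifier and the rule was applied to the FPKM as deposited.

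All transcripts with at least 1 FPKM in at least 3 libraries (9317) were fitted with limma 3.58.1 in R 4.3.3, drought against control, on log2(FPKM + 1) with a mean-variance trend. The scale understates changes of low transcripts. The fit was tried on simulated data with independent normal noise for each transcript. That noise lacked the uneven spacing and length trends of the real libraries, so the trial does not vouch for the calls here. Length trends were removed with lowess (fraction 0.3, statsmodels 0.14.6). Depth and fragments were estimated from steps of low values, with 280 nt taken off each length. Whole reads could not be recovered, so no count test was run and no counting interval is given.

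The members and lists were chosen with earlier results of these data known. Transcripts named are the extremes of the set in level, residual level, length, spread and distance to the threshold. The levels in an unused library were added after these results were seen. Alternatives covered libraries left out, scaling, pseudocount, filters, thresholds and the replicate number as a block.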

Additional observations from a re-analysis of the deposited data

How the results depend on the processing

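The rule found 95 transcripts, and 97 to 254 when a library was left out. The FPKM sums of the libraries ran from 1037936 in drought 3 to 1237913 in control 3. At equal FPKM sums the rule found 83 transcripts, 80 of them among the 95. With upper quartile scaling it found 113, 93 of them among the 95. It found 287 with a ratio of 50% in place of 25%, 31 with 12.5%, and 268 with the ratio of means. The loss of FPKM share, 1.72 percentage points, ran from 1.71 to 3.78 with a library left out and was 1.503 at equal FPKM sums, 1.85 with upper quartile scaling, 1.84 with controls 1 and 2 averaged and 1.63 with the length trend removed. It was 1.60 with 50 FPKM asked of the controls, 6.35 and 0.531 with ratios of 50% and 12.5%, and 5.24 with the ratio of means. Near-complete loss held for 4 members, 4 to 11 with a library left out, 10 with 10 FPKM asked of the controls, 2 at a limit of 0.5 FPKM, 7 at 2 FPKM and 28 at 5% of the control mean. The median residual level, 8.42%, was 8.03% to 11.9% with a library left out, 17.1% and 2.71% with ratios of 50% and 12.5%, and 15.5% with the ratio of means. Members minus other well-expressed transcripts in median length was -338 nt, -373 to -156 nt with a library left out, -205 nt with the length trend removed, -175.5 nt with a ratio of 50% and -183.5 nt with the ratio of means. A rule on fewer libraries can only add members, and a looser ratio must as well. The cause of the other shifts was not tested.

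Calls in the fit over all transcripts, 1860 (955 higher, 905 lower), numbered 742 to 2623 with a library left out, 919 with controls 1 and 2 averaged, 2850 with the length trend removed, 1228 among transcripts at 20 FPKM or more in all controls and 701 at an adjusted p under 0.01. With the replicate number as a block, 1428 passed, 94 of the 95 members among them. The deviations of same-numbered libraries correlated at -0.150, 0.231 and -0.028, and no pairing was assumed. Of 459 repeats for the 27 named members, 455 kept direction and call and none changed direction. The groups do not overlap in any member, so leaving out libraries could not turn a direction. Low residual levels rest on few fragments, which limits the order among the deepest falls.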
